A study of Macaca mulatta with 24 samples.

Results

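Across the genome of omental fat from 24 female rhesus macaques, 676 regions of 1 kb were both dense in measured CpGs and highly methylated. They were chosen by their measured values: a region on chromosomes 1 to 20 was taken when it held at least 20 CpGs and when its methylation level, the mean over its CpGs and over all 24 animals, was at least 65%. The table of CpGs fell into 163687 regions of 1 kb, of which 5601 were dense on these chromosomes, so the 676 regions were the highly methylated minority of dense sequence. They held 17643 CpGs. The level and the CpG number that chose the regions are given below as a description, and only the comparisons between treatment groups were tested. The level averages all groups, so for regions close to the threshold the membership is not independent of those comparisons. With any of the 4 groups left out of the level, 667 of the 676 regions still had at least 65%.

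DNA methylation in mammals is placed mainly on the cytosine of CpG dinucleotides, and most CpGs that stand alone in the genome are methylated. Stretches rich in CpGs, called CpG islands, are the exception, since those at gene promoters are usually kept free of methylation. Dense sequence that does carry methylation is known from gene bodies, from the neighbourhood of chromosome ends, from repeats and from the promoters of genes used only in the germline. The genes and sequences at the regions described here were not analysed here, because no genome or annotation of the build of the files, rheMac8, was used. For the same reason the tissue label was not checked against marker genes.

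The labels give an age of 4 years, without saying at which time, and 3 years of treatment before the biopsy of omental (visceral) white adipose tissue. For the time of the biopsy the authors give a higher approximate age, when the animals were past puberty. Control animals (C) carried cholesterol implants and ate monkey chow, and T animals carried testosterone implants, which model hyperandrogenemia, on chow. WSD animals carried control implants and ate a high-fat western-style diet, and T+WSD animals received testosterone implants together with that diet. Each group had 6 animals with 1 library each, measured by reduced-representation bisulfite sequencing (RRBS), which cuts DNA with MspI at CCGG and therefore samples CpG-rich fragments. The value at a CpG is the percentage of reads that were methylated, and a biopsy mixes several cell types, so a change in the cells and a change within a cell type cannot be told apart.

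Of the 841143 CpGs in the table, between 717554 and 826713 had a value in an animal. T 16 had the fewest, and the T, interaction and testosterone results of the regions named in those comparisons are also given without this animal. The diet effect averaged over both implants uses the T animals too, but is not given without T 16 alone. T 16 lacked 14.96% of the values at CpGs of the dense highly methylated regions, against 1.08% to 8.31% in the other 23 animals. Animal numbers 1 to 12 in the labels belong to the C and T+WSD groups, and numbers 13 to 24 to T and WSD. The labels name no batch, but anything that followed these numbers cannot be told apart from the comparisons of T or WSD with C, or from the interaction of testosterone and diet.

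Dense sequence was mostly at one or the other end of the scale. Of the 5601 dense regions, 4493 had a level under 20% and are called dense unmethylated regions, 432 lay from 20% to below 65%, and 676 were at 65% or more. The count per 5-point bin was lowest, at 29, in the bins that start at 40% and at 55%, and it rose to 225 in the bin from 90% to 95%. The median level of the highly methylated regions was 89.8%, with quartiles at 83.0% and 93.8%. The threshold thus cut a thinly filled part of the distribution. The members closest to it were chr8:7991001-7992000 at 65.1%, chr3:127753001-127754000 at 65.3% and chr19:41984001-41985000 at 65.3%, and the nearest dense regions left out were chr1:2093001-2094000 at 64.9%, chr8:143346001-143347000 at 64.9% and chr2:92416001-92417000 at 64.5%. A further 28 dense regions on chromosome X and 25 on scaffolds or the mitochondrial sequence reached the same level, but lie outside the chromosomes considered.

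**Figure D1:**
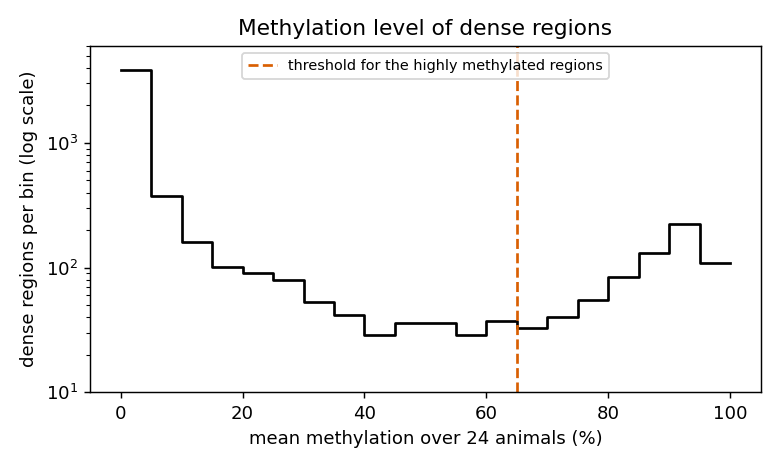
Number of dense 1 kb regions (at least 20 CpGs, chromosomes 1 to 20) in each 5-point bin of the mean methylation level over 24 animals, on a log scale, with the threshold of 65% as a dashed line. Most of the 5601 regions sit at the left end, and the 676 highly methylated regions form a separate rise that peaks at 225 regions between 90% and 95%.

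The regions held 20 to 69 CpGs, with a median of 24, and these spanned a median of 579 bp with a median gap of 10 bp between neighbouring CpGs. In the dense unmethylated regions, which had a median of 26 CpGs, the CpGs spanned 502 bp with a gap of 7 bp. The member with most CpGs, chr8:143347001-143348000 with 69, had a level of 86.8%, and it lies beside the region on chromosome 8 that just missed the threshold. The next in number, chr19:53567001-53568000 with 67 CpGs, also had the highest level of all members, 98.3%. The third, chr3:127731001-127732000 with 64 CpGs, was at 70.9%. A high CpG number therefore occurred both at the top and at the bottom of the range of levels.

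Methylation was spread over nearly all CpGs of these regions. A mean level of 90% or more was found at 10710 of the 17643 CpGs (60.7%), and 65% to below 90% at 5570 (31.6%). Only 46 CpGs (0.261%) were below 20%, and they lay in 36 regions. No region held 5 or more neighbouring CpGs below 20%, and in 314 regions (46.4%) every CpG had a level of at least 65%. The standard deviation (SD) between the CpG levels inside a region had a median of 8.76 points, beside 1.32 points in the dense unmethylated regions and 17.4 points in the dense regions of intermediate level. At the upper end, the 27 CpGs of chr19:9188001-9189000 ranged from 94.1% to 99.1%, whereas the 23 CpGs of chr3:35872001-35873000 ranged from 12.8% to 97.6%. The dense highly methylated regions thus included both evenly and unevenly methylated sequence.

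The regions were concentrated towards the ends of chromosomes. Within 2 Mb of either end of the measured span of a chromosome lay 230 of the 676 regions (34.0%), beside 22.7% of the 432 dense regions of intermediate level and 9.84% of the dense unmethylated regions. Highly methylated regions with few CpGs (3 to 9, level of at least 65%), called sparse highly methylated regions, had 12.2% there, and all regions on these chromosomes with at least 3 CpGs had 13%. Counted the other way, 29.9% of the 770 dense regions within 2 Mb of an end were highly methylated, against 9.23% of the 4831 dense regions further inside. Within 1 Mb the share of the dense highly methylated regions was 19.97% and within 5 Mb it was 52.1%, beside 12.04% and 33.8% of the dense regions of intermediate level. The members near the ends had a median level of 89.9% and those further inside 89.8%, and their median within-group SDs were 2.56 and 2.44 points.

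**Figure D2:**
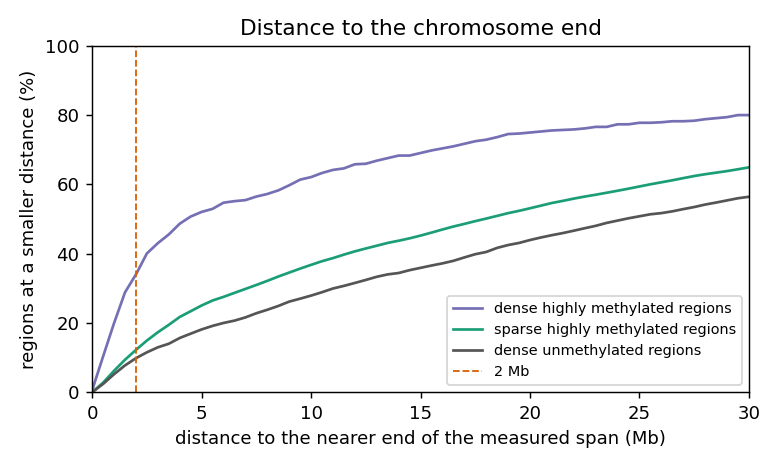
Cumulative share of regions (%) by distance to the nearer end of the measured span of their chromosome (Mb), for the dense highly methylated, sparse highly methylated and dense unmethylated regions. At 2 Mb, marked by the dashed line, the curves stand at 34.0%, 12.2% and 9.84%.

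Chromosome 19 carried more of these regions than any other chromosome, 118 of 676 (17.5%), although it held 7.40% of the regions with at least 3 CpGs on chromosomes 1 to 20. Of its 495 dense regions 23.8% were highly methylated, whereas the share was 10.9% over the other chromosomes together. Chromosome 18 had 17 of its 85 dense regions in the set, and 13 of the 17 lay within 2 Mb of an end. Chromosome 2 had the lowest share, 4.46% of 269 dense regions, and none of its 12 members was within 2 Mb of an end. Without chromosome 19, 34.4% of the members lay within 2 Mb of an end. These are descriptions of position without a test, since neighbouring regions are not independent.

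The regions mostly stood alone and in methylated surroundings. Only 69 of them (10.2%) adjoined another member, in 33 runs, and 127 (18.8%) had another member within 10 kb. The longest runs were 3 regions, and 3 runs had this length. The run on chr19:53566001-53569000 held 136 CpGs at a mean level of 97.6%, the one on chr16:18280001-18283000 held 108 CpGs at 92.5%, and the one on chr3:40028001-40031000 held 89 CpGs at 92.5%. A dense unmethylated region lay next to 8 members (1.18%) and within 10 kb of 88 (13%), and the median distance to the nearest was 67.5 kb. In the adjoining 1 kb the median level was 89.2% on one side and 89.3% on the other, and it declined to 75.5% and 79.8% at 10 kb. Around dense unmethylated regions the median was 2.07% and 2.27% in the adjoining 1 kb, and 73.1% and 73.7% at 10 kb. Over all regions with at least 3 CpGs the median level was 79.6%, so the values at 10 kb lie near the background for both kinds of region. The values beyond the regions rest on the part of the sequence that RRBS covered, which was 41.1% and 42.8% of the places adjoining the members and 20.7% and 23.2% of those at 10 kb.

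**Figure D3:**
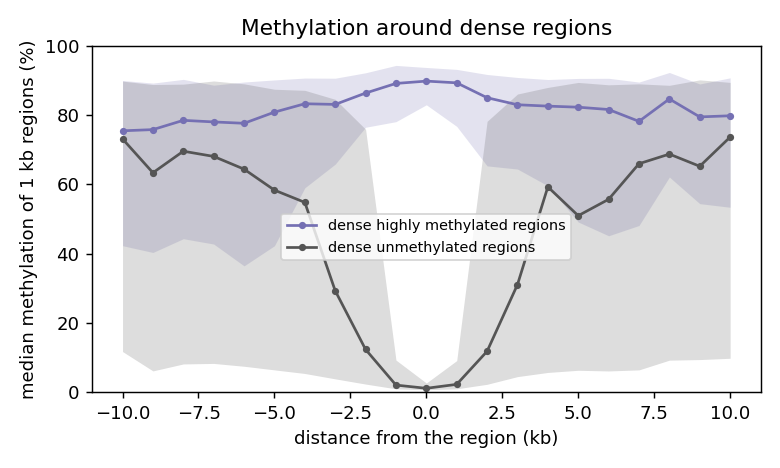
Median methylation level (%) of 1 kb regions with at least 3 CpGs at distances of up to 10 kb on either side of dense highly methylated and dense unmethylated regions, with the band between the quartiles. The highly methylated regions lie in surroundings with medians of 75.5% or more, and the unmethylated regions in a trough whose medians are 12.4% and 11.8% at 2 kb and 29.3% and 31.1% at 3 kb.

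The level of a region varied little between animals of a group. The within-group SD of the region means, pooled over the 4 groups, had a median of 2.48 points and was 0.952 to 7.17 points between the 5th and 95th percentiles. In the sparse highly methylated regions, whose median level of 89.6% was close to that of the dense ones, the median SD was 4.50 points. The lower spread was also found within bands of level. From 65% to 80% it was 5.16 points in dense and 7.46 points in sparse regions, and from 95% to 100% it was 1.08 and 2.40 points. Single CpGs differed less, with a median SD of 6.29 points in dense and 6.72 points in sparse regions, and at levels from 65% to 80% the order was turned, with 10.7 points in dense and 10.4 points in sparse regions. A dense region averages a median of 24 CpGs and a sparse one a median of 4, and the part of this averaging in the lower spread was not tested. The variance of a dense region mean was 2.03 times that expected if its CpGs varied independently (median over regions), beside 1.26 times in the sparse regions.

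The error of a single value was approximated from cytosines measured at adjacent positions, as on both strands of a CpG. Where CpGs follow each other directly, such a pair can also join neighbouring CpGs. A fixed difference between the cytosines of a pair enters the measure too. In 525 such pairs in the members, with 11492 pairs of values, the cytosines of the same animal differed by a median of 5.71 points. The SD of a single value, from the mean squared difference, was 9.03 points, and it was 9.32 points in the sparse highly methylated regions. The median standard error of a difference between groups of 6 animals, from the pooled spread, was 1.43 points for a member, and it was below 5 points in 97.3% of members. Of all values at member CpGs 3.51% were missing, beside 4.39% over all regions with at least 3 CpGs, and 34.8% of the member CpGs lacked a value in at least 1 animal. CpGs whose values fell into steps, as a genotype would give (all animals at 0% to 15%, 35% to 65% or 85% to 100%, with 2 or more animals in at least 2 of these bands), made up 86 of the member CpGs (0.487%), in 79 regions, beside 0.509% in the sparse highly methylated regions and 0.267% of the CpGs of all regions.

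The most stable members were on chromosomes 19 and 7. In chr19:53567001-53568000 the within-group SD was 0.439 points, and all 24 animals lay between 97.7% and 99.1%. It was 0.516 points in chr19:1823001-1824000, a region of 35 CpGs at 97.3%, and 0.533 points in chr7:161473001-161474000, a region of 20 CpGs at 97.8%. Their levels are close to the upper limit of the scale. The other regions with the highest levels, chr19:40323001-40324000 at 98.1% and chr19:9188001-9189000 at 98.0%, were also on chromosome 19.

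The most variable member was chr3:170650001-170651000, with a within-group SD of 20.9 points over 25 CpGs. The C animals ran from 50.5% to 84.5% (median 64.8%), the T animals from 50.1% to 97.5% (78.2%), the WSD animals from 8.78% to 84.8% (66.1%) and the T+WSD animals from 42.8% to 91.5% (61.0%). All groups overlapped over a wide range. In chr7:168349001-168350000, with an SD of 15.3 points over 24 CpGs, the lowest animals were WSD 24 at 26.5%, C 5 at 37.7% and T 13 at 55.3%. The adjusted p of limma was at least 0.502 in all 6 comparisons for the region on chromosome 7 and at least 0.759 for the region on chromosome 3.

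A different form of variation was seen at chr17:738001-739000, which holds 37 CpGs at a mean level of 91.3%. WSD 20 had 23.1% and WSD 24 had 38.9%, while the other 22 animals were between 88.2% and 97.6%. The other 4 WSD animals had at least 91.8%, so the low values were those of 2 animals of the group. At the same CpGs, the 22 other animals had a mean of 93.0% (the 14 CpGs with a value in WSD 20) and of 94.0% (the 25 CpGs with a value in WSD 24). Of these CpGs 10 and 15 were below 50% in the respective animal. WSD minus C was -21.2 points at an adjusted p of 0.615 in limma. The only other member with a level of at least 80% and an animal below 50% was chr1:145422001-145423000 (46 CpGs, 84.0%), where C 1 had 34.4% and C 4 had 43.9%, the other 22 animals had at least 57.1%, and their mean at the same CpGs was 88.4%.

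Such departures were rare. In 26 of the 676 regions (3.85%) at least 1 animal lay more than 20 points from the median of all animals, and in 13 of these it was a single animal. Of the 55 animal values concerned, 44 were lower and 11 were higher than the median. C 5 and WSD 22 had 6 each and T 16 had 5, whereas T 17, WSD 19 and WSD 21 had none. Values above the median by this amount occurred in T+WSD 8 (4 regions), T 16 (3) and, with 1 region each, T 13, T 14, T+WSD 10 and T+WSD 12. Departures were thus found in animals of every group.

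The mean over all 676 regions differed little between animals. It was 87.0% to 88.3% (median 87.5%) in C and 86.0% to 88.6% (87.5%) in T. It was 85.9% to 88.3% (87.9%) in WSD and 86.1% to 88.2% (86.9%) in T+WSD. The ranges of all 4 groups overlapped. The group means and SDs (n = 6 each) were 87.5% ± 0.489 for C, 87.5% ± 0.911 for T, 87.5% ± 0.927 for WSD and 87.0% ± 0.881 for T+WSD, and T had 87.3% ± 0.831 (n = 5) without T 16. T+WSD minus C was -0.465 points, which is smaller than the SD of either group. In the sparse highly methylated regions the same animals had means of 87.9% ± 0.531 (C), 87.0% ± 0.399 (T), 87.2% ± 0.649 (WSD) and 86.7% ± 0.375 (T+WSD), and there the C animals, from 87.4% to 88.8%, did not overlap with the T+WSD animals, from 86.1% to 87.1%. No test was made of these means, and the difference between both kinds of region was not tested.

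**Figure D4:**
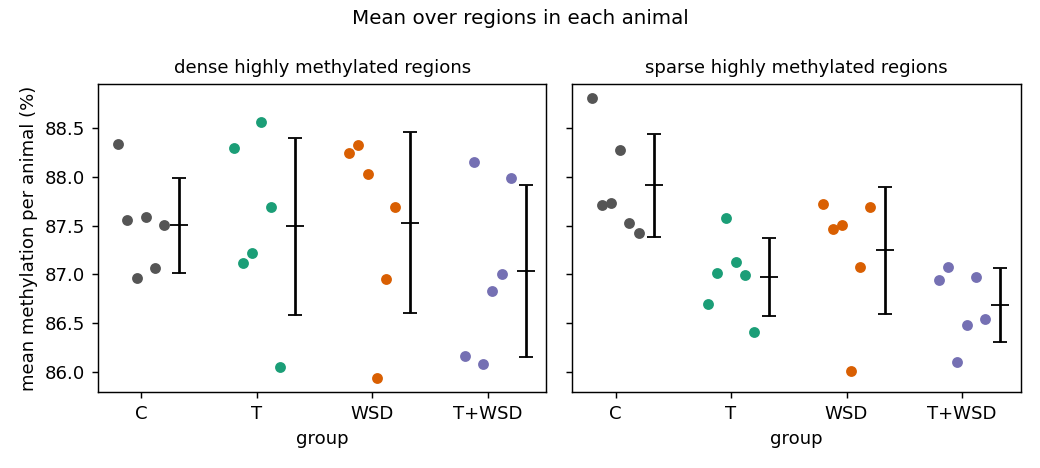
Mean methylation level (%) over the 676 dense highly methylated regions (left) and over the 52727 sparse highly methylated regions (right) in each of the 24 animals, by group, with the mean and SD of the group beside the points. The axis does not start at 0. The 4 groups overlap on the left, and the C and T+WSD animals do not overlap on the right.

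The animal with the highest mean in the dense unmethylated regions was, in each group, among those with the highest mean in the dense highly methylated ones. C 1 had 3.04% in the unmethylated regions, T 13 had 3.55%, WSD 20 had 3.90% and T+WSD 8 had 3.89%, against group medians of 2.32% to 2.60%. In the highly methylated regions the same animals had 88.3%, 88.3%, 88.3% and 88.2%. C 1, WSD 20 and T+WSD 8 were the highest of their groups there, and T 13 was second to T 16. The part of this in the group means was not tested.

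The combination of testosterone and diet was compared with C to ask whether dense methylated sequence responded to the joint treatment, and 1 of the 676 regions was called. A call required a Benjamini-Hochberg adjusted p under 0.05 in limma, which fits a linear model to each region and moderates its variance, here over 100864 regions with at least 3 CpGs, and a difference between group means over 10 points. Over all regions tested the share called was 0.206%, and 0.0793% were called higher, the direction of the single member. The 208 regions called over all became 10 without C 1, 26 without C 3, 29 without T+WSD 8 or T+WSD 9 and 321 without C 2, so this background rests on single animals. At an unadjusted p under 0.05 there were 72 members (10.7%), with 24 higher and 48 lower (66.7% lower), and the share over all regions was 10.9%, of which 70.9% were lower. The median difference of the members was -0.39 points, beside -0.38 points over all regions tested, and 63.0% of members and 58.7% of all regions were lower in T+WSD. The C and T+WSD animals did not overlap in 14 members (2.07%), 3 higher and 11 lower, beside 1.36% of all regions. These shares of members lie near the background. Differences over 10 points were found in 6 members (0.888%) and in 5.63% of all regions. A member averages a median of 24 CpGs and has a median within-group SD of 2.48 points. Over all regions tested these medians were 5 CpGs and 4.20 points. The part of this in the lower share of members was not tested.

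The called region, chr3:35872001-35873000, lies just above the level threshold. It holds 23 CpGs between positions 35872149 and 35872955 and had a level of 65.6%. Without the T+WSD animals the level was 62.7% and without the WSD animals 64.8%, so its membership rests on the groups in which it was high, and its call is no support for a response of the set. Of the 671 members that had at least 65% without T+WSD, 0 were called for T+WSD, beside the 72 members with an unadjusted p under 0.05 given above. The C animals had 44.3% to 67.5% (median 56.0%), the T animals 59.7% to 71.7% (64.8%), the WSD animals 63.7% to 77.9% (67.5%) and the T+WSD animals 63.0% to 83.5% (74.6%). C and T+WSD still overlapped, with C 2 and C 4 above T+WSD 11. The group means were 55.5% ± 9.98 for C, 65.3% ± 4.39 for T, 68.7% ± 5.07 for WSD and 74.0% ± 6.82 for T+WSD (SD, n = 6 each). T+WSD was higher than C by 18.6 points at an adjusted p of 0.0462 in limma. The rise was shared by 22 of its 23 CpGs, with a median difference of 21.6 points and a range from -0.20 to 50.9 points, and 14 had an unadjusted p under 0.05, but none of them was called alone (smallest adjusted p 0.261). T minus C was 9.86 points (adjusted p = 0.679), or 9.25 points (0.789) without T 16, and WSD minus C was 13.3 points (adjusted p = 0.419), and neither was called.

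This call rested on a small margin. It was lost when C 1, C 3, C 5, T 14, T 15, T 17, T 18, WSD 20, WSD 23, T+WSD 7, T+WSD 8, T+WSD 9, T+WSD 10 or T+WSD 12 was left out, with adjusted p between 0.0515 and 0.136, while the difference stayed between 16.3 and 20.95 points when any animal was left out. The 3 comparisons with C share the C animals, so their differences at this region are not independent.

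**Figure D5:**
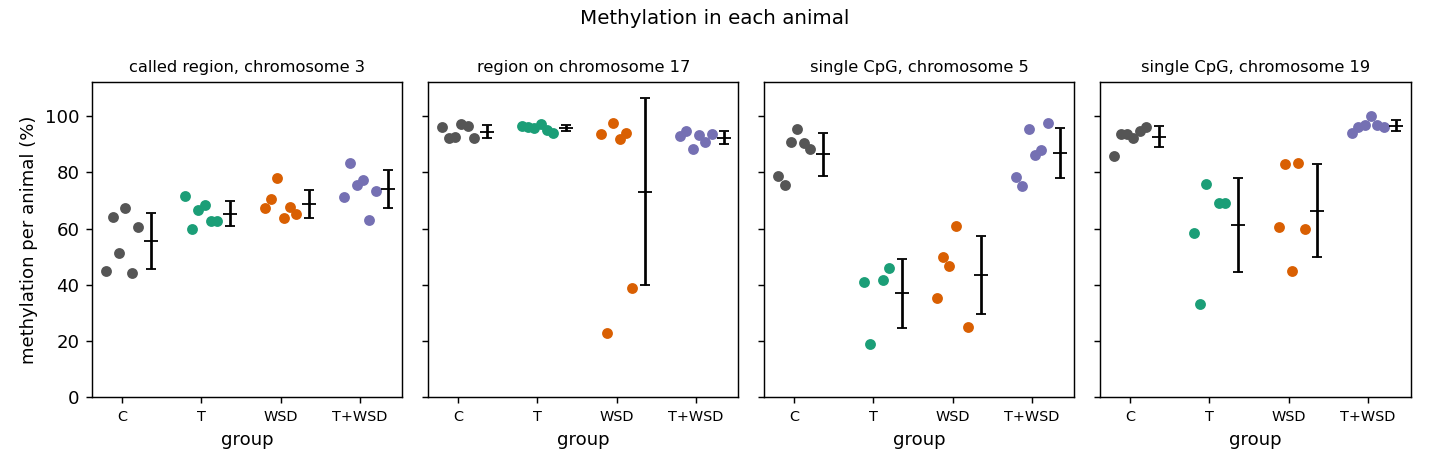
Methylation (%) in each animal by group, with the mean and SD of the group beside the points, for the region on chromosome 3 that was called for T+WSD minus C, the region on chromosome 17 with 2 low WSD animals, and the single CpGs on chromosomes 5 and 19 that were called in the interaction. At both CpGs the T and WSD animals lie below the C and T+WSD animals.

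For T alone, which asks for an effect of testosterone on chow, no member was called, where 0.00793% of all regions were. At an unadjusted p under 0.05 there were 34 members (5.03%), 10 higher and 24 lower (70.6% lower), against 6.72% of all regions, of which 74.6% were lower. Without T 16 there were 30 (4.44%), against 6.28% of all regions. The members with the smallest p were chr19:525001-526000 and chr8:50242001-50243000. In the region on chromosome 19 (27 CpGs, 93.4%) the C animals had 93.5% to 97.2% (median 95.1%) and the T animals 84.4% to 94.1% (91.6%), which overlapped. T was lower by 4.17 points (adjusted p = 0.477), and by 2.84 points (0.581) without T 16, the lowest animal. In the region on chromosome 8 (26 CpGs, 86.7%) the C animals had 66.8% to 91.1% (84.1%) and the T animals 87.3% to 95.3% (92.5%), with a difference of 9.56 points (adjusted p = 0.504) and of 9.73 points (0.543) without T 16. With any 1 animal left out, the difference on chromosome 8 ran from 6.43 to 11.3 points. The animal far from its group there was C 5, at 66.8%, and not T 16. Neither difference passed the threshold on adjusted p, and no member was called without T 16 either.

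For WSD alone, no member was called either, and 0.00397% of all regions were. An unadjusted p under 0.05 was found for 34 members (5.03%), 14 higher and 20 lower (58.8% lower), against 7.44% of all regions, of which 62.4% were lower. The smallest p belonged to chr3:35872001-35873000, described above, which belongs to the set only with its WSD and its T+WSD animals and is given here as a value only. The next was chr8:615001-616000 (22 CpGs, 76.7%), where the C animals had 76.5% to 86.4% (median 80.9%) and the WSD animals 69.9% to 77.9% (74.3%). These groups overlapped only slightly, and the difference was -6.99 points (adjusted p = 0.420), and -10.8 points (0.346) when only CpGs with a value in every animal were used. T+WSD minus C in this region was -6.62 points (adjusted p = 0.196), with the same C animals.

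Averaged over both implants, no member was called for the diet, and 0.0129% of all regions were called. An unadjusted p under 0.05 was found for 45 members (6.66%), with 9.42% over all regions. The smallest p was at chr20:41737001-41738000 (30 CpGs, 83.6%). It had 77.5% to 85.8% (median 82.1%) in C and 74.5% to 85.1% (81.5%) in T, but 81.1% to 91.3% (86.7%) in WSD and 86.3% to 90.3% (88.4%) in T+WSD. The T+WSD animals were all above the C and T animals. The diet effect was 6.29 points, with an adjusted p of 0.122 in limma that did not pass the threshold, and it was 1.46 points (adjusted p = 0.636) when only CpGs with a value in every animal were used. With any 1 animal left out, this diet effect stayed between 5.70 and 6.83 points, with adjusted p between 0.0778 and 0.207. The second was chr3:35872001-35873000, with 10.98 points (adjusted p = 0.141), again a value only, since its membership needs the animals of both groups on the western-style diet. The region with 64 CpGs, chr3:127731001-127732000, ran from 52.3% to 74.3% (67.4%) for C, 56.1% to 74.7% (62.6%) for T, 69.6% to 82.4% (73.4%) for WSD and 64.3% to 86.3% (72.4%) for T+WSD, a diet effect of 9.46 points (adjusted p = 0.249). The groups of both diets overlapped there. Its group means were 65.2% in C and 64.0% in T, beside 74.4% in WSD and 73.8% in T+WSD. On chow this region thus lay at the level threshold of 65%, so its membership is not independent of the diet comparison, and the effect is given as a value only.

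Averaged over both diets, testosterone gave no called member, and 0% of all regions were called. An unadjusted p under 0.05 was found for 46 members (6.80%), 11 higher and 35 lower, against 7.64% of all regions. Of these members 76.1% were lower, and 75.1% of all regions with such a p. The smallest p values were at chr3:64244001-64245000 (20 CpGs, 88.2%) and chr7:52461001-52462000 (23 CpGs, 87.6%). In the former, C had 88.6% to 91.4% (median 90.8%) and WSD 87.5% to 92.1% (88.5%), while T had 85.4% to 88.7% (88.2%) and T+WSD 84.8% to 87.7% (86.4%). The effect of testosterone was -2.79 points (adjusted p = 0.396), and -1.30 points (0.667) when only CpGs with a value in every animal were used. In the latter it was -2.94 points (adjusted p = 0.416), and T+WSD, from 83.3% to 86.4% (84.6%), lay below C, from 86.6% to 91.3% (88.8%), without overlap. Both effects are far below 10 points. Without T 16 they were -2.91 points (adjusted p = 0.380) and -2.83 points (0.446), and 42 members (6.21%) had an unadjusted p under 0.05, against 7.68% of all regions.

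The interaction is the difference of T+WSD from WSD less the difference of T from C, and it asks whether testosterone acted differently on the western-style diet than on chow. No member was called, and 0.0178% of all regions were. An unadjusted p under 0.05 was found for 25 members (3.70%), against 5.61% of all regions. The smallest p was at chr6:983001-984000 (25 CpGs, 95.8%), where C and T+WSD had medians of 97.1% and 96.8%, and T and WSD of 95.3% and 95.8%. The interaction was 3.81 points (adjusted p = 0.757), 2.12 points (0.895) with complete CpGs only and 3.43 points (0.803) without T 16. The second was the region on chromosome 8 that was named for T, with -11.9 points (adjusted p = 0.769) and -12.04 points (0.775) without T 16. With any 1 animal left out, its interaction ran from -13.6 to -8.74 points. Neither passed the threshold, and 25 members (3.70%) also had an unadjusted p under 0.05 without T 16, against 5.63% of all regions.

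Tested as single CpGs in limma over all 841143, the 17643 CpGs of the members gave 2 calls, both in the interaction, where 0.0174% of all CpGs were called. No CpG of a member was called for T (0.00559% of all CpGs), WSD (0.00559%), T+WSD (0.0069%), the diet effect (0.000357%) or the testosterone effect (0%). At an unadjusted p under 0.05 the members had 1008 CpGs for T, beside 5.58% of all CpGs, 1012 for WSD (6.28%), 1146 for T+WSD (7.61%), 1008 for the interaction (5.42%), 1165 for the diet effect (7.07%) and 1014 for the testosterone effect (5.89%). These counts are 5.71%, 5.74%, 6.495%, 5.71%, 6.60% and 5.75% of the member CpGs, near the background in each case.

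Both called CpGs separated the animals by the number series of their labels. At position 1917195 of chromosome 5, in a region of 37 CpGs at 90.4%, C had 75.4% to 95.2% (median 89.3%) and T+WSD 75% to 97.6% (87.1%). T had 19.1% to 46.2% (41.4%) over the 4 animals with a value and WSD 25% to 61.1% (46.7%) over 5. All measured animals numbered 13 to 24 were below all animals numbered 1 to 12. The interaction was 92.5 points (adjusted p = 0.000563), but the 5 other CpGs within 100 bp had a median of 11.6 points, and the region as a whole had 1.61 points (adjusted p = 0.992).

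At position 53648505 of chromosome 19, in a region of 27 CpGs at 94.3%, C had 85.7% to 96.2% (median 93.6%) and T+WSD 93.9% to 100% (96.3%), whereas T had 33.3% to 75.9% (69.2%) and WSD 45% to 83.3% (60.7%), each over 5 animals. The animals again did not overlap between the number series. The interaction was 61.6 points (adjusted p = 0.00341), the 8 other CpGs within 100 bp had a median of -1.87 points, and the region had 1.98 points (adjusted p = 0.939). T 16 had no value at either CpG. Neither CpG met the criteria for steps like those of a genotype. Both CpGs lie in regions that were highly methylated in all groups, and a source in the number series cannot be told apart from an interaction.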

How the data were processed

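RRBS was done on omental fat of 24 macaques. The authors trimmed reads with Trim Galore 0.4.2 in its RRBS mode, aligned them to rheMac8 with Bismark 0.16.1, and kept CpGs with a coverage of at least 10 in at least 4 of 6 animals per group. The authors deposited 1 percent value per CpG and animal, unscaled. The reads behind each value are not in the table, so the depth per value is unknown and no interval from reads was computed. Sequencing totals of the libraries were not used here.

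CpGs were grouped into regions of 1 kb by position, and the region mean was taken in each animal without missing values. The members and lists were chosen with earlier results of these data known. Arcsine-transformed means were tested with limma 3.58.1 (R 4.3.3), with all 24 animals in one fit and p adjusted by Benjamini-Hochberg over all regions with at least 3 CpGs, and CpGs likewise over the table. An interaction is (T+WSD minus WSD) minus (T minus C). A main effect averages the effect of a factor over both levels of the other. Alternatives were fitted in Python 3.11.15 with numpy 2.4.6, after the fit was tested on simulated data and its calls were checked against limma.

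The text names members that were called or, where there was none, the 2 with the smallest p in that comparison, the 3 with most CpGs, highest level, lowest and highest spread, the longest runs, and the 3 regions on either side of the threshold. No column was left unused.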

Additional observations from a re-analysis of the deposited data

Results flagged for a closer look

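Of 108 sets of 6 animals (or of the animals with a value) examined at the named regions, at the 2 called CpGs and for the mean over all members, 7 had an animal far from the rest of its group. In independent sets not chosen by their values, chance gives about 5.4, at 1 in 20. Most of these sets were chosen by their values and share animals, so the comparison with 5.4 cannot decide whether 7 is more than chance. In chr19:525001-526000, T 16 had 84.4% against 91.0% to 94.1% in the other T animals. In chr8:50242001-50243000, C 5 had 66.8% against 83.4% to 91.1%. In chr7:161473001-161474000, T 18 had 97.4% against 97.9% to 98.1%, a gap of little size in a very even region. In chr7:168349001-168350000, T 13 had 55.3% against 82.5% to 87.9%. Among the regions at the threshold, T+WSD 8 had 87.3% against 57.5% to 66.3% in chr3:127753001-127754000, T 16 had 84.9% against 59.9% to 67.6% in chr19:41984001-41985000, and T+WSD 8 had 74.2% against 53.9% to 59.7% in chr8:143346001-143347000. The pair of low WSD animals in chr17:738001-739000 was not among these, because the measure looks for a single animal.

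The interaction term of limma passed the threshold at 2 CpGs, and an interaction cannot be told apart there from a source in the number series. It was 92.5 points at position 1917195 of chromosome 5 and 61.6 points at position 53648505 of chromosome 19. At both, the animals numbered 13 to 24 lay below those numbered 1 to 12.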

How the results depend on the processing

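The called region was lost for T+WSD minus C, leaving 0 members called, under the log2 ratio, with only the groups of the contrast in the fit, with a variance prior that follows the mean, and among members at 70% or more, an alternative chosen after seeing the data. Over all regions the calls also fell, from 208 to 20, 33 and 52 under the first 3 of these. With complete CpGs only, 1 member was called, beside 422 regions over all, but it was chr19:6462001-6463000 (-17.0 points, adjusted p = 0.0375; -7.72 points and 0.0863 with all CpGs) and not the region on chromosome 3. Leaving out animals gave 0 to 1 called member for T+WSD, beside 10 to 321 regions over all, and 0 in the other 5 comparisons. These 5 comparisons also had 0 called members under the 11 alternatives fitted for each of them. Over all regions, those alternatives gave 0 to 11 calls for T and 0 to 16 for WSD. For the interaction, 26 of all regions were called at an adjusted p under 0.1 and 2 among regions with at least 10 CpGs. With 1 animal left out, the calls over all regions for the diet effect ran from 1 to 42, beside 13 with every animal. The count was 1 without C 1, C 3, WSD 20 or WSD 22, and 42 without WSD 24. The calls ran from 2 to 10 for T, from 2 to 9 for WSD, from 13 to 20 for the interaction and from 0 to 1 for testosterone. Averaging transformed values, also chosen after seeing the data, left 1 for T+WSD, of 145 over all regions. For CpGs, untransformed values gave 1 called for T, 1 for WSD and 1 for T+WSD, of 50, 58 and 78 called over the whole table. At an adjusted p under 0.1, 1 was called in each of these, of 65, 77 and 226, and 4 of 199 in the interaction, and complete CpGs gave 0 of 93 in the interaction, because both called CpGs lack values. Leaving out animals gave 0 to 1 called CpG for T, WSD and T+WSD and 2 to 3 for the interaction, where 36 to 53, 34 to 66, 3 to 81 and 122 to 156 were called over the whole table. The set held 1752 regions with at least 15 CpGs and 139 with at least 30. The median within-group SD was 2.68 points with complete CpGs. The share near an end was 19.97% within 1 Mb and 52.1% within 5 Mb. No paired analysis was possible because the groups share no animal numbers. Depth per value is unknown, so counting error and differences between animals were not separated.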
